A study of Homo sapiens with 9 samples.

Results

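The replication-dependent histone genes were examined in HCT 116 cells, an established human colorectal cancer line of epithelial origin, after transfection with klotho or with an empty vector. The members are the genes named H1-1 to H1-6 and those whose symbol is H2AC, H2BC, H3C or H4C followed by a number, taken from the platform's annotation wherever a probe set named 1 gene only, with pseudogenes left out. This gave 58 of the 17958 genes on the array, of which 6 code for the linker histone H1, 14 for H2A, 16 for H2B, 9 for H3 and 13 for H4. In RefSeq 69 protein-coding genes fit the same naming rule. The other 11 were read only by probe sets that name several genes, and they are described apart.

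The groups were KL-FL, cells transfected with mouse full-length klotho; KL1, cells transfected with the KL1 subdomain of mouse klotho; and control, cells given the pcDNA3 vector. Each group had 3 arrays, 9 in all, and RNA was taken 24 h after transfection. Klotho is a membrane protein with 2 extracellular repeats, KL1 and KL2, and is best known as a co-receptor of the hormone FGF23. The labels do not say how many cells took up a plasmid, which of the 2 transfection reagents they name was used for which sample, or whether the 3 replicates of a group are separate cultures. The p-values therefore rest on array-to-array spread that could be technical alone. In its title the study asks about the unfolded protein response; the question for these genes is whether klotho or its KL1 domain altered the histone messages.

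Replication-dependent histone genes supply the histones that package newly made DNA, and they are transcribed mainly in S phase. Core histones H2A, H2B, H3 and H4 form the nucleosome, and H1 binds the linker DNA between nucleosomes. Their short messages mostly have no introns and, unlike other messages, end in a stem-loop in place of a poly(A) tail. SLBP binds that stem-loop and directs processing, translation and turnover of the message. Most of the genes sit in a large cluster on chromosome 6, with smaller groups on chromosome 1, where the coactivator NPAT drives them from histone locus bodies. Of the members here, 50 lie in the chromosome 6 cluster, 5 in a group at 1q21, 2 in a group at 1q42, and H4C16 lies on chromosome 12. The 2 at 1q42, H2AC25 and H2BC26, were also listed as H2AW and H2BU1 among replication-independent variants and were counted as members only. Annotated lengths of H2BC21, H3C6, H2BC12, H2BC4, H2BC5 and H4C15 are 2224, 3296, 8566, 10757, 13229 and 16753 bases, longer than such short messages.

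Values are log2 expression values as deposited, so a difference of 1 is a doubling, and values of different probe sets do not rank the genes they name. Median values over genes ran from 5.38 to 5.42 across the 9 arrays. KL-FL replicate 3 stood apart: its correlation with each other array had a median of 0.997, against 0.998 for KL1 replicate 2 and 0.999 for each of the rest. Its values deviated from their group means with an SD of 0.0936 over genes, the highest of the 9. Counts, medians and most of the differences that include it are also given without it. The human KL probe set read 3.22, 3.21 and 3.13 on KL-FL arrays and 3.27, 3.18 and 3.13 on KL1 arrays, against 3.05, 3.06 and 3.03 on control arrays. These dim values were above the controls by 0.14 and 0.15, with adjusted p-values of 0.637 and 0.927 (limma), and the KL-FL difference was 0.17 with replicate 3 left out. The probes were designed for human klotho while the vectors carried mouse klotho, so they check the labels only weakly. Epithelial markers had a median value of 8.94 over 10 genes, while 10 fibroblast and endothelial markers had a median of 3.51 and 8 leukocyte markers a median of 3.47, the pattern of an epithelial line. In bulk RNA, fewer cells in S phase and less histone RNA in each such cell cannot be told apart.

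Promoter windows of the 5 classes were searched for short motifs, and 1 is printed for each class, from the member with the smallest p-value of its class in KL-FL minus control. RefSeq promoter sequences of GRCh38.p14, running from 250 bases before the transcript start to 50 after it, were matched for 53 of the 58 members. The H3C6 window belongs to a gene annotated at 3296 bases, longer than a short histone message. Whether that window holds the promoter of the short H3 message was not tested. Motifs were searched by exact letters on both strands, and capitals mark every hit. The motifs were the TATA box TATAAA, the CCAAT box CCAAT, the octamer ATTTGCAT bound by POU2F1, the H1 box AAACACAAA, and GGTCCG, the core of the H4 site bound by HINFP.
H1-2 (chr6:26056421-26056720, minus strand): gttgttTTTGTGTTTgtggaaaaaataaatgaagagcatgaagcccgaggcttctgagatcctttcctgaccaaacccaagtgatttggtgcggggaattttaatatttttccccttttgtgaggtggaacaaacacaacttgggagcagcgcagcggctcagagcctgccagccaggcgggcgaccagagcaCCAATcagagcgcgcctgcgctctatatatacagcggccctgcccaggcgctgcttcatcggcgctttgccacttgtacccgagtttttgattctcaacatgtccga
H2AC21 (chr1:149887916-149888215, minus strand): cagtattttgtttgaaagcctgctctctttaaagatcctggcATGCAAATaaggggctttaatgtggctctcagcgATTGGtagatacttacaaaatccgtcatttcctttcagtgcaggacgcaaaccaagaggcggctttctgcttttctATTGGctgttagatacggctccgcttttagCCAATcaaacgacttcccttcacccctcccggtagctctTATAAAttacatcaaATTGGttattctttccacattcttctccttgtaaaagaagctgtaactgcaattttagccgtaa
H2BC7 (chr6:26199266-26199565, plus strand): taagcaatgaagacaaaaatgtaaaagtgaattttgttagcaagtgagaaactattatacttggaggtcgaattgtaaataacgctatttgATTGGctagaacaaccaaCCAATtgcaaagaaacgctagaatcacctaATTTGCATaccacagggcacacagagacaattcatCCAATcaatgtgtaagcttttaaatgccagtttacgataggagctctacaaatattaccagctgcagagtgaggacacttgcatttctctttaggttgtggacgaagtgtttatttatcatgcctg
H3C6 (chr6:26223928-26224227, plus strand): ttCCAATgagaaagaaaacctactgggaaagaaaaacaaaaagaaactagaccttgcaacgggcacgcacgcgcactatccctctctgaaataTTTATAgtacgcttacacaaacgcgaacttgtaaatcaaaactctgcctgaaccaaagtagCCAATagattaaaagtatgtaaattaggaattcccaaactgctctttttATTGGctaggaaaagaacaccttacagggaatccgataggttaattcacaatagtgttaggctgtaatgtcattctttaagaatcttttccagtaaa
H4C8 (chr6:26285485-26285784, minus strand): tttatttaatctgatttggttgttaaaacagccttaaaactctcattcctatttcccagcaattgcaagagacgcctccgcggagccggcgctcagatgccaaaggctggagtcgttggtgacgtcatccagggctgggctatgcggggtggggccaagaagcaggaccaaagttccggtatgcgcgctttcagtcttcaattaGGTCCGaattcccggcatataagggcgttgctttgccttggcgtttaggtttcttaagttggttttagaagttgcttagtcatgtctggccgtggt

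The letters found differed between the classes. CCAAT was found in all 6 H1, 13 H2A, 16 H2B and 7 H3 promoters matched and in 3 of the 11 H4 promoters, against 35.7% of the 27305 promoters in the table. The octamer was present in 10 of the 13 H2A and 13 of the 16 H2B promoters and in 0 of the H1, H3 and H4 promoters, against 1.80% of all promoters. Many H2A and H2B genes start back to back with overlapping windows, so the same site can count in both classes. GGTCCG was present in 10 of the 11 H4 promoters, against 11.2% of all, and in 1 promoter each of H2A, H2B and H3. The H1 box was found in 3 of the 6 H1 promoters and in 0 of the core histone promoters, against 0.637% of all. TATAAA was found in 35 of the 53, against 3264 of the 27305. A match is a description of the letters and not a binding site, and no match says only that these letters are not in the window.

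On average the histone messages of klotho-transfected cells sat furthest below those of control cells on KL-FL replicate 3. On that array 42 of the 58 members were more than 0.1 below their control mean, against 3699 of all 17958 genes. The counts were 20 on KL1 replicate 2, against 2132 of all genes, and 13 on KL-FL replicate 1, against 1261. On KL-FL replicate 2 and KL1 replicates 1 and 3 they were 4, 6 and 5, against 878, 1604 and 1677. Averaged over the 58 members, the log2 deviation from the control mean was -0.050, 0.054 and -0.32 on KL-FL replicates 1, 2 and 3, and 0.0036, -0.064 and -0.0070 on KL1 replicates 1, 2 and 3. The control arrays themselves deviated by at most 0.0090 in size. They make up the control mean, so their deviations are smaller by construction and do not measure the spread expected of other arrays. Over all genes the mean deviation lay between -0.019 and 0.032 on every array. KL-FL replicate 3 was the lowest of the 9 arrays for 43 of the 58 members, against 23.9% of all genes. Among members at or above the median value of all genes, 5.39, it was the lowest array for 28 of 32, against 31.5% of the genes at or above that value. KL-FL replicate 2 lay on the other side and was the highest of the 9 arrays for 22 of the 58 members, against 3813 of all 17958 genes.

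The classes differed in how low they were on that array. On KL-FL replicate 3 the mean deviation was -0.47 for H2A, -0.40 for H4, -0.36 for H3, -0.19 for H2B and -0.096 for H1. It was the lowest array for 13 of 13 H4 genes, 9 of 9 H3 genes, 11 of 14 H2A genes, 8 of 16 H2B genes and 2 of 6 H1 genes. On KL-FL replicate 2 the same means were 0.068 for H2A, 0.11 for H4, 0.015 for H3, 0.020 for H2B and 0.049 for H1. Members that share a class share sequence, and near-identical copies may read each other's RNA on such an array, so the members of a class are not independent readings. The classes also differed in how bright their probe sets were, and the part of brightness in these class means was not tested. Of the members at or above the median value of all genes, 2 were H1, 10 H2A, 9 H2B, 4 H3 and 7 H4. These 32 had a mean deviation of -0.46 on KL-FL replicate 3, and the 26 dimmer members one of -0.14. By class the 32 averaged -0.62 for H2A, -0.54 for H3, -0.51 for H4, -0.28 for H1 and -0.27 for H2B there. Among them the order of the classes thus differed from that of all members. On KL1 replicate 2 the 32 averaged -0.11, with H2A at -0.17, H2B at -0.14, H1 at -0.093, H3 at -0.045 and H4 at -0.023.

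**Figure D1:**
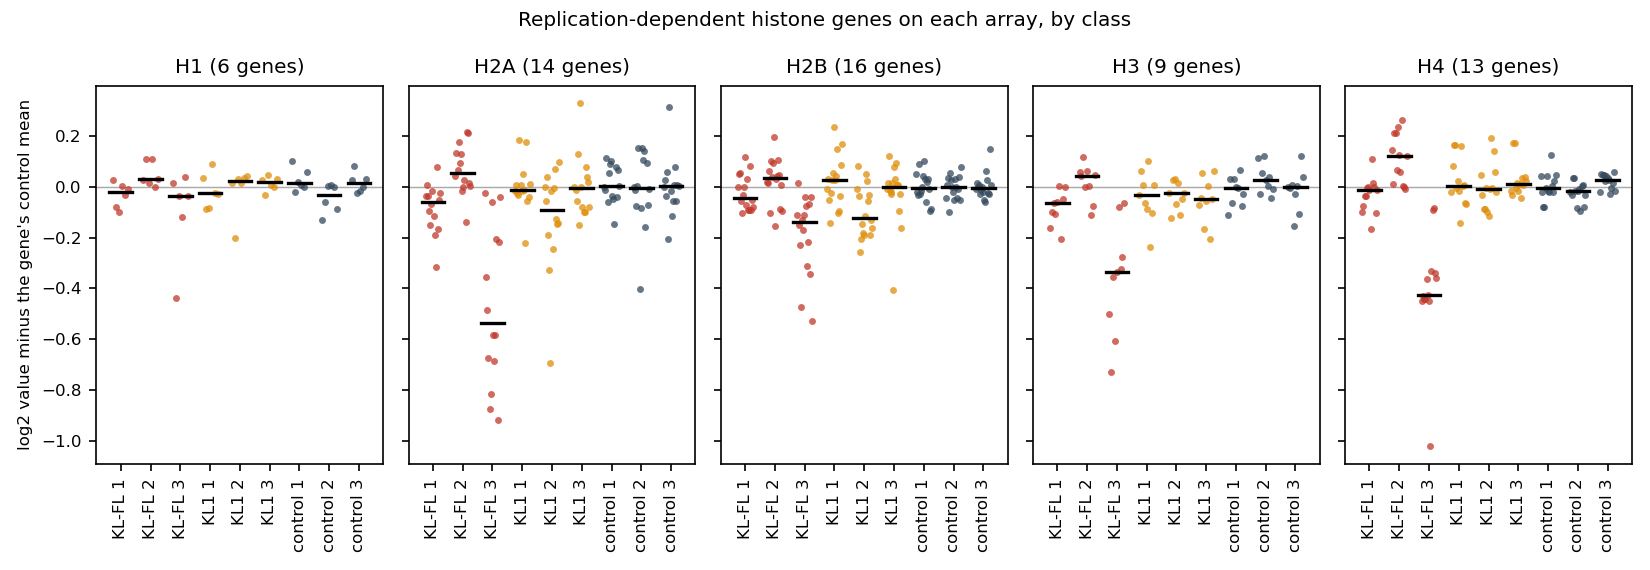
Each point is 1 histone gene on 1 array, as its log2 value minus the mean of that gene's 3 control values (vertical axis), with arrays along the horizontal axis, 1 panel per class and a bar at the median. The points of KL-FL replicate 3 sit below 0 in the H2A, H3 and H4 panels, where its mean deviation was -0.47, -0.36 and -0.40. Among the other arrays KL1 replicate 2 is lowest in the H2A and H2B panels, with means of -0.12 and -0.098.

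The question of KL-FL minus control was whether full-length klotho altered histone messages. With all arrays 51 of the 58 members had a lower mean in KL-FL cells, against 42.7% of all genes, and the median log2 difference of the members was -0.088, against 0.0099 for all genes. The differences ran from -0.38 for H4C4 to 0.067 for H2BC21. Of the members 0 passed the test (limma, two-sided, Benjamini-Hochberg adjusted p under 0.05 over all genes), against 0.00557% of all genes, and the smallest adjusted p of a member was 0.671. At an unadjusted p under 0.05 there were 3 members, all lower, against 2.28% of all genes lower at that level. These values rested on single arrays. Without KL-FL replicate 3 there were 25 of the 58 members lower, against 35.6% of all genes, and the median was 0.0046, against 0.018 for all genes. Without KL-FL replicate 2 the median was -0.18.

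The 1 gene that passed in KL-FL minus control was DDIT3, a stress-induced transcription factor and no histone, named after its values were seen. It was 0.65 higher in KL-FL cells (adjusted p = 0.0348) and 0.78 higher in KL1 cells (adjusted p = 0.00687), both from limma. A fit blocked on replicate number called 0 genes in either comparison.

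The KL1 domain was set against the same control arrays. In KL1 minus control 37 of the 58 members were lower, against 47.8% of all genes, with a median of -0.020 against 0.0026 for all genes and a range from -0.18 for H3C6 to 0.10 for H4C5. Again 0 members passed, against 0.00557% of all genes, and the smallest adjusted p was 0.927. At an unadjusted p under 0.05 there was 1 member, H3C6, and it was lower, against 2.11% of all genes. The 3 KL1 arrays lay within -0.064 and 0.0036 of control on average, and KL1 replicate 2 was the lowest of them, without which the members' median was -0.0065. Both comparisons use the same 3 control arrays and are therefore not independent.

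Linker histone H1 had a class median of -0.0032 in KL-FL minus control, with 4 of 6 genes lower, and of 0.013 with 2 of 6 lower without KL-FL replicate 3. The median was 0.0097 in KL1 minus control, with 2 of 6 lower. H1-2, a somatic linker histone made in most dividing cells, read 7.93, 8.12 and 7.57 on KL-FL arrays, against 7.99, 7.95 and 8.09 on control arrays. KL-FL replicate 2 was above every control array and replicate 3 below every one of them. The difference was -0.14 (SE 0.12, adjusted p = 0.782), and without KL-FL replicate 3 it was 0.015. On KL1 arrays H1-2 read 7.92, 7.81 and 7.98, a difference of -0.11 from control (SE 0.12, adjusted p = 0.935). H1-4, another somatic linker histone with a bright probe set, read 11.46, 11.57 and 11.34 on KL-FL arrays and 11.55, 11.48 and 11.47 on KL1 arrays, against 11.47, 11.47 and 11.45 on control arrays. Its groups overlapped, and KL1 differed from control by 0.038 (SE 0.054, adjusted p = 0.952). H1-3 was dim, with group means of 3.47 ± 0.056 in KL-FL cells and 3.51 ± 0.023 in control cells (SD, n = 3 each), a difference of -0.040 (adjusted p = 0.814) that was -0.042 without KL-FL replicate 3.

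H2A genes had the lowest class mean on KL-FL replicate 3. The class median was -0.17 in KL-FL minus control with 13 of 14 genes lower, and -0.0044 with 7 of 14 lower once KL-FL replicate 3 was left out. In KL1 minus control it was -0.035, with 12 of 14 lower. H2AC21, from the 1q21 group, read 9.67, 9.84 and 9.40 on KL-FL arrays and 9.76, 10.05 and 9.89 on KL1 arrays, against 9.84, 10.12 and 9.99 on control arrays. KL-FL replicates 1 and 3 lay below every control array, and KL-FL replicate 2 equalled the lowest control to 2 decimals. The difference was -0.35 (SE 0.12, unadjusted p = 0.0180, adjusted p = 0.688), or 0.787 times the control value, and without KL-FL replicate 3 it was -0.23. KL1 differed from control by -0.084 (SE 0.12, adjusted p = 0.952). H2AC20, its neighbour in the same group, read 8.86, 9.08 and 8.36 on KL-FL arrays, against 9.00, 9.15 and 8.99 on control arrays. KL-FL replicate 2 lay among the controls and the other 2 arrays below them. The difference was -0.28 (SE 0.15, adjusted p = 0.709), and -0.081 without replicate 3. H2AC6, in the chromosome 6 cluster, averaged 8.26 ± 0.083 in KL1 cells and 8.31 ± 0.070 in control cells (SD, n = 3 each), a difference of -0.054 (adjusted p = 0.939).

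H2AC15 shows how far a single H2A gene varied between arrays of 1 group; it is named because of its values. It read 9.28, 9.48 and 8.53 on KL-FL arrays and 9.36, 8.66 and 9.68 on KL1 arrays, against 9.44, 8.95 and 9.66 on control arrays. Each group held 1 array far below the other 2, replicate 3 in KL-FL and replicate 2 in KL1 and in control. The difference of -0.25 in KL-FL minus control had an SE of 0.31 (adjusted p = 0.843), and with KL-FL replicate 3 left out it was 0.030. In all, 9 of the 58 members (15.5%) ordered replicates 1, 2 and 3 alike in KL1 and in control, against 14.6% of all genes. The probe sets of the testis histones H2AC1 and H2BC1 were dim, with means of 3.26 and 2.76 over the 9 arrays.

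H2B genes had medians near control in the group comparisons, but were low on 1 array of each klotho group. Their median deviation was -0.14 on KL-FL replicate 3 and -0.12 on KL1 replicate 2. It lay between -0.043 and 0.034 on the remaining klotho arrays. On those 2 low arrays 11 and 9 of the 16 genes were more than 0.1 below control, against 3699 and 2132 of all 17958 genes. The class median was -0.036 in KL-FL minus control, with 13 of 16 genes lower, 0.0041 with 7 of 16 lower without KL-FL replicate 3, and -0.040 in KL1 minus control, with 12 of 16 lower. H2BC7 read 9.37, 9.37 and 9.12 on KL-FL arrays and 9.43, 9.27 and 9.37 on KL1 arrays, against 9.45, 9.50 and 9.43 on control arrays. Every klotho array lay below every control array, KL1 replicate 1 only in the third decimal. KL-FL differed from control by -0.17 (SE 0.070, unadjusted p = 0.0352, adjusted p = 0.688) and KL1 by -0.11 (SE 0.070, adjusted p = 0.927), and the KL-FL difference was -0.090 without replicate 3. H2BC9 read 6.27, 6.26 and 5.82 on KL-FL arrays, against 6.27, 6.43 and 6.36 on control arrays, a difference of -0.23 (SE 0.13, adjusted p = 0.712) that rested mainly on replicate 3 and was -0.087 without it. H2BC12 had 8.92, 8.81 and 9.05 on KL1 arrays, against 9.15, 8.97 and 9.07 on control arrays, a difference of -0.14 (SE 0.073, adjusted p = 0.927) with overlapping groups.

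H3C6, an H3 gene of the chromosome 6 cluster, was low in both klotho groups. It read 4.26, 4.35 and 4.14 on KL-FL arrays and 4.22, 4.35 and 4.25 on KL1 arrays, against 4.53, 4.50 and 4.35 on control arrays. All 6 klotho values lay below all 3 control values, though replicate 2 of each klotho group was under control replicate 3 only in the third decimal. The differences were -0.21 for KL-FL (SE 0.065, unadjusted p = 0.00992, adjusted p = 0.671) and -0.18 for KL1 (SE 0.065, unadjusted p = 0.0202, adjusted p = 0.927). Without KL-FL replicate 3 the KL-FL difference was -0.16. H3C6 had the smallest p-value of any member in both comparisons, rank 265 and rank 369 among all genes. Its probe set was dim, in the 34.6th percentile of all genes, and the files hold no detection call, so a faint message and background cannot be separated there.

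The other H3 genes were low mainly on KL-FL replicate 3. The class median in KL-FL minus control was -0.13 with 9 of 9 genes lower, and -0.029 with 5 of 9 lower without that array. It was -0.043 in KL1 minus control, with 6 of 9 lower. H3C10, named because of its values, read 6.17, 6.31 and 5.54 on KL-FL arrays, against 6.30, 6.24 and 6.27 on control arrays. Replicates 1 and 2 of KL-FL sat beside the controls and replicate 3 far below, and the difference of -0.26 (SE 0.16, adjusted p = 0.733) became -0.029 without it. H3C7 had a KL-FL difference of -0.13 (SE 0.070, adjusted p = 0.709), with group means of 4.33 ± 0.13 in KL-FL cells and 4.47 ± 0.11 in control cells (SD, n = 3 each), and it was -0.061 without KL-FL replicate 3. H3C2 read 10.38, 10.40 and 10.41 on KL1 arrays, against 10.46, 10.49 and 10.44 on control arrays, with every KL1 array below every control array. H3C3 was 0.040 higher in KL1 cells than in control cells (SE 0.037, adjusted p = 0.933).

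H4 genes were high on KL-FL replicate 2 and low on KL-FL replicate 3. The class median was -0.088 in KL-FL minus control, with 12 of 13 genes lower, and 0.032 with 4 of 13 lower without replicate 3, and it was 0.0055 in KL1 minus control, with 5 of 13 lower. KL-FL replicate 2 was the highest of the 9 arrays for 9 of the 13 H4 genes, against 3813 of all 17958 genes. KL-FL replicate 3 was the lowest for all 13, against 23.9% of all genes. H4C4, named because it had the lowest difference of all members, read 7.73, 7.95 and 6.87 on KL-FL arrays and 7.75, 7.89 and 7.91 on KL1 arrays, against 7.87, 7.89 and 7.92 on control arrays. The control arrays were nearly equal, and a single KL-FL array was about 1 log2 unit below them. The difference of -0.38 had an SE of 0.22 (adjusted p = 0.724), and it was -0.053 without that array. H4C8 read 4.95, 5.05 and 4.72 on KL-FL arrays and 4.99, 5.11 and 5.10 on KL1 arrays, against 5.08, 4.98 and 5.11 on control arrays, and KL-FL differed from control by -0.15 (SE 0.079, adjusted p = 0.709). H4C13 differed by -0.17 (SE 0.099, adjusted p = 0.724). These differences were -0.058 for H4C8 and -0.033 for H4C13 without KL-FL replicate 3. In KL1 cells H4C5 was 0.10 higher than in control cells (SE 0.14, adjusted p = 0.951) and H4C7 0.052 higher (SE 0.044, adjusted p = 0.929). H4C14 and H4C15 had identical values on every array and are 1 measurement, so the 58 members hold 57 distinct ones.

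**Figure D2:**
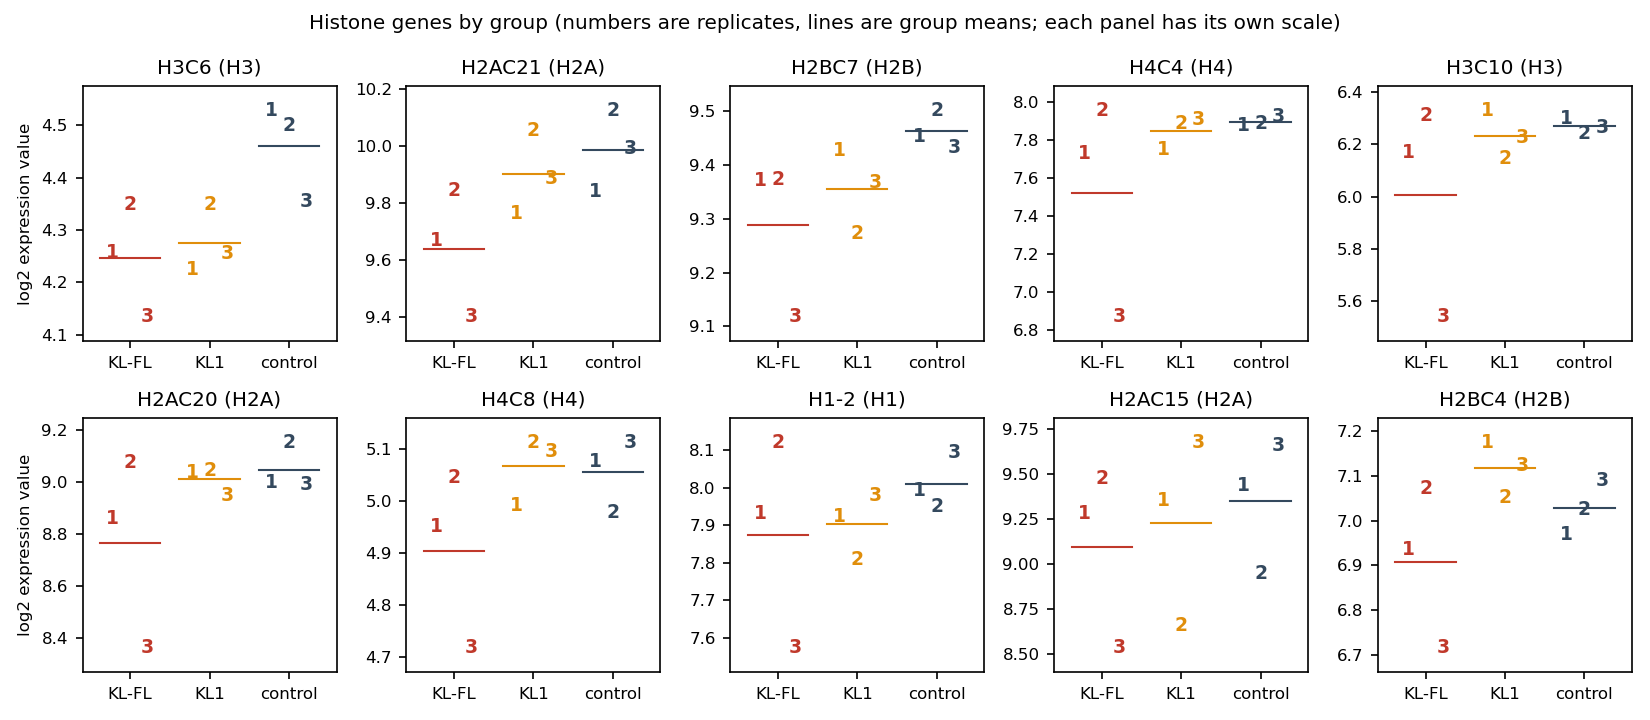
Log2 values of 10 histone genes (vertical axes, each panel with its own scale) in KL-FL, KL1 and control cells; each number is the replicate of 1 array and each line the mean of 3 arrays. KL-FL replicate 3 is the lowest value in every panel, and H3C6 and H2BC7 are the 2 genes in which the KL-FL arrays all lie below the control arrays.

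Histone genes lay below control on every array of a klotho group about as often as all genes did. Every KL-FL array lay below every control array for 2 of the 58 members, H2BC7 and H3C6, against 3.25% of all genes. Every KL1 array lay below every control array for 3 members, H2BC7, H3C2 and H3C6, against 4.34% of all genes. In neither comparison was a member above control on every array, against 7.13% of all genes for KL-FL and 5.13% for KL1. With KL-FL replicate 3 left out, the 2 remaining KL-FL arrays lay below every control array for 3 members, against 5.59% of all genes, and above every control array for another 3, against 17.6% of all genes.

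Full-length klotho and its KL1 domain were also set against each other. In KL-FL minus KL1 53 of the 58 members were lower, against 45.6% of all genes, with a median of -0.062 against 0.0058 for all genes and a range from -0.33 for H4C4 to 0.19 for H2BC21. Without KL-FL replicate 3 there were 20 of 58 lower, against 36.6% of all genes, and the median was 0.014. Of the members 0 passed the test, against 0.0% of all genes, and the smallest adjusted p was 0.855. H2BC4 was the 1 member with an unadjusted p under 0.05, and it was lower, against 1.55% of all genes. It read 6.94, 7.07 and 6.72 on KL-FL arrays, against 7.18, 7.05 and 7.12 on KL1 arrays, and KL-FL replicate 2 lay among the KL1 values. The difference was -0.21 (SE 0.081, adjusted p = 0.855), and -0.11 without KL-FL replicate 3. H2AC21 differed by -0.26 (SE 0.12, adjusted p = 0.855), H4C8 by -0.16 (SE 0.079, adjusted p = 0.855), H3C3 by -0.064 (SE 0.037, adjusted p = 0.855) and H1-3 by -0.038 (SE 0.044, adjusted p = 0.891). Leaving out KL-FL replicate 3, the differences were -0.14 for H2AC21, -0.069 for H4C8, -0.037 for H3C3 and -0.041 for H1-3. Among the members every KL-FL array lay below every KL1 array for H4C7 alone, against 2.21% of all genes, and above every KL1 array for 0, against 4.67% of all genes.

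**Figure D3:**
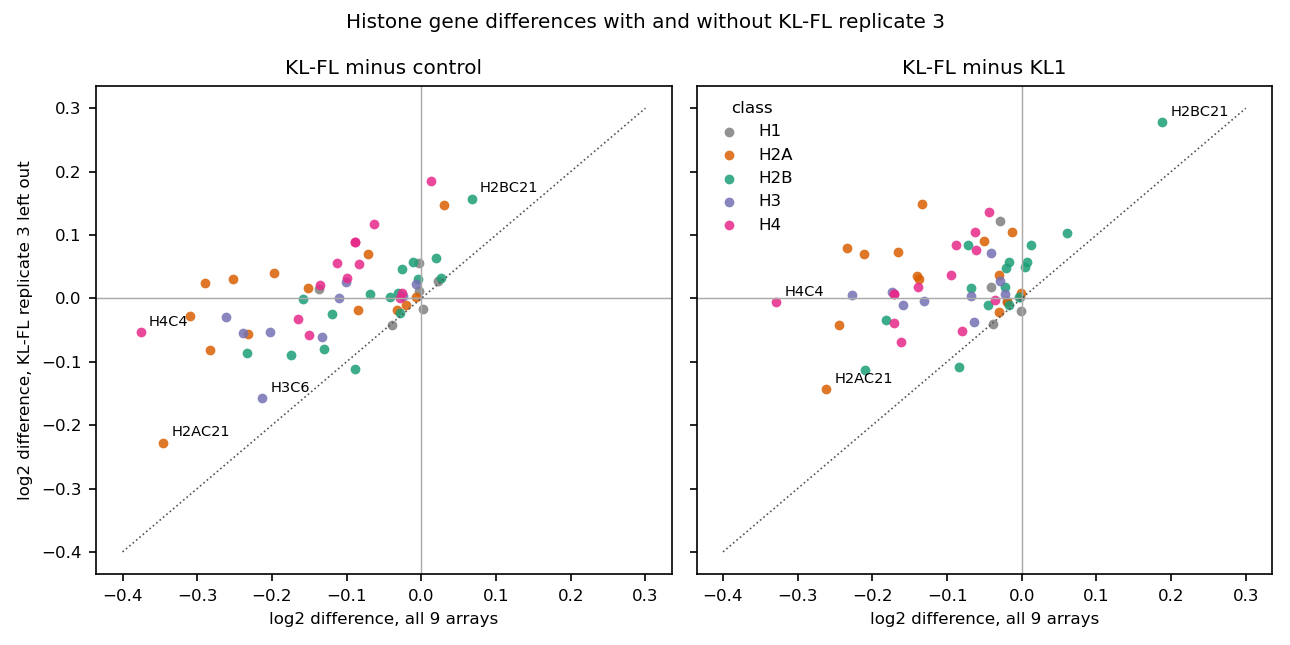
Each point is 1 histone gene, coloured by class, with its log2 difference from all 9 arrays on the horizontal axis and the same difference without KL-FL replicate 3 on the vertical axis, for KL-FL minus control (left) and KL-FL minus KL1 (right); the dotted line marks equal values. Without that array the points lie about 0, with medians of 0.0046 and 0.014, while H2AC21 and H3C6 stay lowest in KL-FL minus control at -0.23 and -0.16.

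The loci were compared on KL-FL replicate 3. There the mean deviation from control was -0.31 for the 50 genes of the chromosome 6 cluster, -0.45 for the 5 genes at 1q21, -0.12 for the 2 genes at 1q42 and -0.36 for H4C16 on chromosome 12. At 1q42 KL1 replicate 2 and control replicate 2 lay as low or nearly so, at -0.12 and -0.10, and H2BC26 was lowest on KL-FL replicate 2. KL-FL replicate 3 was the lowest array for 37 of the 50, 4 of the 5, 1 of the 2, and for H4C16. The 5 at 1q21 include H4C14 and H4C15, which are 1 measurement but enter that count and the 1q21 mean as 2 genes. There were 10 pairs of members that start back to back within 1000 bases of each other, 9 of them an H2A gene and an H2B gene whose starts are 215 to 248 bases apart and whose upstream windows therefore overlap. H3C7 and H2BC9 are the remaining pair, 979 bases apart. In KL-FL minus control H3C7 and H2BC9 differed by -0.13 and -0.23, and by -0.061 and -0.087 without KL-FL replicate 3. Partners did not always go the same way. With all arrays H2BC21 and H2AC20 differed by 0.067 and -0.28, and H2AC25 and H2BC26 by 0.031 and -0.088. In each of the other pairs both genes were lower.

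Probe sets that name several genes gave the same picture for copies that cannot be read singly. There were 19 such probe sets with histone members in their names, and they cover the 11 genes with no probe set to themselves. Some had identical values, so the 19 hold 16 distinct readings, and the counts below include the repeats. Some also name members counted above, such as H2AC20, H3C10 and H4C14, and are not independent of them. In KL-FL minus control 15 of the 19 were lower, with a median of -0.17, and without KL-FL replicate 3 the median was 0.0079. KL-FL replicate 3 was the lowest array for 17 of the 19. A probe set naming both H4C11 and H4C12 read 8.64, 8.90 and 7.78 on KL-FL arrays, against 8.79, 8.73 and 8.90 on control arrays; it is named because its difference of -0.37 was the lowest of the 19. In KL1 minus control 11 of the 19 were lower, with a median of -0.020. H2BC21, the highest member in both comparisons of KL-FL, was also named with H2BC20P by another probe set. That probe set differed by -0.001 in KL-FL minus control and by -0.015 in KL-FL minus KL1. The probe set naming H2BC21 alone differed by 0.067 and 0.19.

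The genes that make, process and use histone messages were close to control, and 0 genes of any of these lists passed the test in either comparison with control. Of 20 measured genes of histone message processing and turnover 10 were lower in KL-FL cells, with a median of -0.0015, and without KL-FL replicate 3 there were 9, with a median of 0.016. SLBP read 8.61, 8.72 and 8.55 on KL-FL arrays and 8.67, 8.61 and 8.62 on KL1 arrays, against 8.59, 8.65 and 8.62 on control arrays. The groups overlapped, with differences of 0.0033 for KL-FL (SE 0.045, adjusted p = 0.989) and 0.012 for KL1 (SE 0.045, adjusted p = 0.983), and the sign of both turned when single arrays were left out. CTIF, which supports translation of histone messages bound by SLBP, was 0.087 higher in KL-FL cells (SE 0.031, adjusted p = 0.688), and 0.089 without replicate 3. Of 17 genes of histone gene transcription 10 were lower, with a median of -0.017, and without KL-FL replicate 3 there were 5, with a median of 0.029. NPAT read 7.67, 7.61 and 7.73 on KL-FL arrays and 7.55, 7.60 and 7.52 on KL1 arrays, against 7.60, 7.59 and 7.60 on control arrays. Its KL-FL values were all above the controls, and the highest was replicate 3, with a difference of 0.076 (SE 0.038, adjusted p = 0.700) that was 0.045 without it. CCNE2, a cyclin that with CDK2 phosphorylates NPAT, differed by -0.086 (SE 0.037, adjusted p = 0.695), and by -0.057 without replicate 3.

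Of 19 histone chaperone and assembly genes 6 were lower in KL-FL cells, with a median of 0.026, and ATRX, which deposits histone H3.3 with DAXX, was 0.11 higher (SE 0.033, adjusted p = 0.682). Without KL-FL replicate 3 there were 7 lower, with a median of 0.021, and ATRX was 0.076 higher. Of 42 genes of S phase and DNA replication 27 were lower, with a median of -0.029, and CDC6, which loads the replicative helicase, was 0.14 higher (SE 0.036, adjusted p = 0.583). Without that array there were 23 lower, with a median of -0.0063, and CDC6 was 0.16 higher. Of 12 histone variant genes expressed also outside S phase, whose messages mostly carry poly(A) tails, 9 were lower, with a median of -0.048, and 6 were lower without it, with a median of -0.0052. H1-10, a linker histone variant, read 5.90, 5.98 and 5.69 on KL-FL arrays and 6.07, 6.11 and 6.03 on KL1 arrays, against 6.15, 6.18 and 6.20 on control arrays. All KL-FL values lay below all KL1 values and these below all control values. The KL-FL difference of -0.32 (SE 0.065, unadjusted p = 0.00083, adjusted p = 0.550) was -0.24 without replicate 3.

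Several other gene lists also averaged below control on KL-FL replicate 3, each by less than any core histone class. The mean deviation from control was -0.17 for the 12 variants, -0.14 for 10 epithelial markers, -0.12 for 60 cytosolic ribosomal protein genes, -0.098 for the S phase list, -0.085 for the transcription list and -0.061 for the processing list. It was -0.017 for the chaperones, -0.024 for the leukocyte markers and 0.029 for the fibroblast and endothelial markers, against -0.019 for all genes. For 204 small nucleolar RNAs, which have no poly(A) tail either, the mean was -0.10 but the median -0.021. That array was the lowest for 46 of the 204, a share close to the 23.9% of all genes. The mean of these RNAs was -0.090 on KL-FL replicate 1 and -0.094 on KL1 replicate 2. In KL-FL minus control 43 of the 60 ribosomal protein genes were lower, with a median of -0.025, and RPL18 differed by -0.12 (SE 0.040, adjusted p = 0.688). Leaving out KL-FL replicate 3, 30 of the 60 were lower and RPL18 differed by -0.097. Of the snoRNAs 126 of 204 were lower, with a median of -0.019, and SNORA3B differed by -0.32 (SE 0.078, adjusted p = 0.577). Without that array there were 122 lower, with a median of -0.027, and SNORA3B differed by -0.27. The part that these lists' low values share with the low histone values of KL-FL replicate 3 was not tested.

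**Figure D4:**
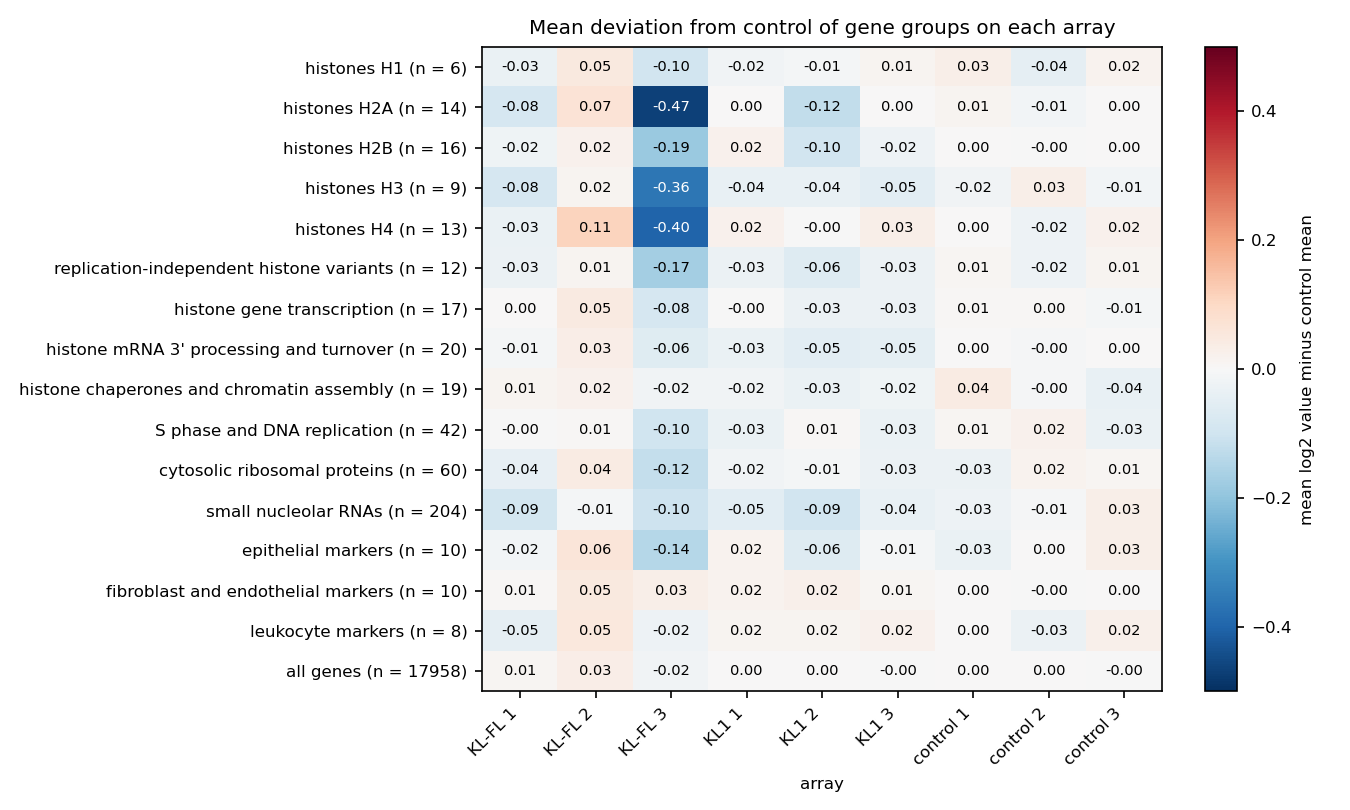
Mean log2 deviation from the control mean (colour and printed number) for the 5 histone classes, other gene lists and all genes (rows, with the number of genes) on each of the 9 arrays (columns). The H2A, H4 and H3 rows are lowest on KL-FL replicate 3, at -0.47, -0.40 and -0.36, and all genes there average -0.019.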

How the data were processed

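The deposited table gives log2 values of 33297 probe sets on the 9 arrays; the log2 scale was inferred from their range, 1.79 to 12.4. The submitters' processing notes name Partek 6.6; how background and normalization were handled is not stated in the labels. Probe sets were named through the platform annotation (19181 name 1 gene, 2055 several, 12061 none here), symbols were checked through gene IDs (0 changed, 38 unmatched), and the brightest probe set stood for each of 17958 genes. No member had more than 1. Values repeat between arrays: 28 of 58 members, and 68.5% of all genes, had exactly equal values on 2 or more arrays.

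A linear model of 3 groups without covariates was fitted over all 9 arrays with lmFit, contrasts.fit and eBayes of limma 3.58.1 (R 4.3.3); p-values are two-sided and Benjamini-Hochberg adjusted over all genes, at 0.05. The fit was tested on simulated data. Named genes are, per class, the 2 with the smallest p in each comparison with control, the 1 in KL-FL minus KL1 and those with the highest and lowest values, plus KL, SLBP, NPAT and 1 gene per list; others are said to be chosen for their values. Members and lists were chosen with earlier results of these data known. The labels number replicates 1 to 3 without saying what a number shares. Same-numbered deviations of KL1 and control correlated at 0.113, 0.322 and 0.186, and no pair with KL-FL passed 0.1. Differently numbered arrays were not compared, so whether the numbers pair the arrays was not tested. Alternatives changed the normalization, array weights, samples fitted, replicate block, filter on dim genes, choice of probe set, variance prior and arrays kept.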

Additional observations from a re-analysis of the deposited data

How the results depend on the processing

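With 3 arrays a group the number of arrays limits every value, and dim probe sets hold no detection call. Array weights changed most: they called 523 genes in KL-FL minus control, 2 in KL1 minus control and 1 in KL-FL minus KL1, and gave KL-FL replicate 1 a weight of 6.76 against 0.265 for KL-FL replicate 3. Under them 1 of the 58 histone members passed in KL-FL minus control, no larger a share than the 523 of all 17958 genes. It was H2AC21, at -0.33 (limma, adjusted p = 0.0487), and without weights its adjusted p was 0.688. H1-10 (-0.28, adjusted p = 0.0217), KL (0.17, 0.0359), CDC6 (0.13, 0.0419) and SNORA3B (-0.38, 0.0247) passed there too. With a replicate block, with every probe set tested, and in KL-FL minus control with only the 6 arrays of the 2 groups, 0 genes were called in place of 1; the block called 0 histone members and changed no other call. Leaving out single arrays, the genes called ranged from 0 to 1 in both comparisons with control. The call was lost in KL-FL minus control without KL-FL replicate 1, KL1 replicate 1 or 3, or any 1 control array, and in KL1 minus control without any 1 KL1 or control array.

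The count of histone members lower ranged from 25 to 53 in KL-FL minus control, from 20 to 56 in KL-FL minus KL1 and from 31 to 40 in KL1 minus control when each array was left out in turn. The lowest counts of the KL-FL comparisons came without KL-FL replicate 3. The median difference ranged from -0.18 to 0.0046, from -0.12 to 0.014 and from -0.027 to -0.0065 in the same order. With genes below the 50th percentile left out, 30 of 32 members were lower in KL-FL minus control and 29 of 32 in KL-FL minus KL1; the smaller list sets these counts. SLBP turned sign in KL-FL minus control with centred arrays (-0.0038) and array weights (-0.010), and from -0.043 to 0.042 as arrays were left out; in KL1 minus control it ranged from -0.0079 to 0.027. H1-2 ranged from -0.26 to 0.015 and H2AC15 from -0.45 to 0.030 in KL-FL minus control. The cause was not tested.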
